A study of Mus musculus with 6 samples.

Results

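The genes of prostaglandin synthesis and reception were followed in RNAseq of immortalized mouse pancreatic fibroblasts. They are 10 genes, which are the cyclooxygenases *Ptgs1* and *Ptgs2*, the terminal synthases *Ptges*, *Ptges2*, *Ptges3* and *Ptgis*, the inactivating enzyme *Hpgd*, and the receptors *Ptger2*, *Ptger4* and *Ptgfr*. Their rows were matched by symbol, and 8 of the 10 have a row among the 14831 genes of the count table. The list itself was drawn up with earlier results of these data known. *Hpgd* (chr8:56294585-56321043) and *Ptger2* (chr14:44988195-45003820) were found neither by symbol nor by Ensembl identifier, and no level can be given for them. Positions are from GENCODE M21 on GRCm38.

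The study asked what GLI2 and GLI3, transcription factors at the end of the Hedgehog (HH) pathway, do in pancreatic fibroblasts. The 6 libraries are 3 labelled WT and 3 labelled *Gli2*-/-;*Gli3*-/-, called WT-labelled and KO-labelled here, all of mixed strain. Per the study's methods, fibroblast lines were grown out of adult pancreata of mice carrying floxed *Gli* alleles and immortalized, so both groups come from floxed cells. Control cells received an adenovirus with eGFP and a lentivirus with dsRed, and knockout cells received an adenovirus with eGFP and another with Cre, with the CMV promoter in the adenoviruses. They were then sorted and screened for recombination. Cells of each group were grown to confluence in 3 wells with calf serum, and no HH agonist is stated for these samples. Replicates are thus wells, so that p-values measure the spread of culture and library making alone, and the effect of the genotype cannot be told apart from a difference between the lines or between the viruses.

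Prostaglandins are short-lived lipid signals made on demand. Phospholipases release arachidonic acid from membranes, the cyclooxygenases COX-1 (*Ptgs1*, usually present at a steady level) and COX-2 (*Ptgs2*, an immediate early gene induced by serum and cytokines) convert it to prostaglandin H, and terminal synthases turn that intermediate into prostaglandin E, prostacyclin and others. Fibroblasts are a known source of prostaglandin E, which acts on neighbouring cells through G protein-coupled receptors and is cleared by uptake and by 15-hydroxyprostaglandin dehydrogenase (*Hpgd*).

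The libraries held 31728420 to 33905521 counts when labelled WT and 32781730 to 41035931 when labelled KO, and 3 counts correspond to 0.0720 to 0.0957 CPM, the usual scaling of counts to library size. The targeted genes go against the labels: *Gli2* had 809, 944 and 868 counts in the WT-labelled libraries and 1932, 2316 and 1926 in the KO-labelled ones, and *Gli3* had 392, 416 and 398 against 1434, 1637 and 1404. These gene-level counts also cover exons outside the deleted part. The HH target *Ptch1*, which encodes the HH receptor, had 7046, 7912 and 7834 counts in the WT-labelled libraries and 2732, 3416 and 2851 in the KO-labelled ones. The HH targets *Gli1* (40, 50 and 37 against 4, 10 and 13 counts) and *Hhip* (39, 42 and 44 against 0 in each) were lower there too, so these 3 genes run the way the labels give. Every direction below is that of the libraries as labelled. Among fibroblast markers, 10 of 12 were listed and 9 tested. By the rule given below, 4 were called lower and 1 higher, against 6.1% and 11.6% of all tested genes. *Col1a1* was at 15980 ± 871 CPM (SD, n = 3) in the WT-labelled libraries and 16110 ± 408 in the KO-labelled ones. No row was found for the leukocyte marker *Ptprc*, the endothelial marker *Pecam1* or the epithelial marker *Epcam*. Other markers of non-fibroblast cells did have counts. Endothelial *Vwf* had 31, 29 and 51 counts in the WT-labelled libraries and 27, 35 and 31 in the KO-labelled ones. Acinar *Cela1* and smooth muscle *Cnn1* were called higher in the KO-labelled libraries, at log2 fold changes of 0.87 and 0.72. Smooth muscle *Acta2* did not pass the test, at 0.008.

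Among the 8 listed genes, *Ptges*, the inducible prostaglandin E synthase, and *Ptgfr*, the receptor for prostaglandin F, were higher in the KO-labelled libraries by a wide margin, while the cyclooxygenases and the other synthases moved by less than 1.5-fold. A gene was called when the adjusted p of edgeR's quasi-likelihood test was under 0.05 and the change at least 1.5-fold. By this rule 2 of the 8 were called, both higher in the KO-labelled libraries, where 17.7% of all 14289 tested genes were called in either direction and 11.6% were higher and 6.1% lower. Both had passed the filter on low counts only through the KO-labelled libraries, so the count of 2 gives no support of its own. On the adjusted p alone, 6 of the 8 passed, 4 higher and 2 lower, where 58.7% of all tested genes did. Libraries did not overlap between the groups for 6 of the 8, against 64.2% of all tested genes. The median log2 fold change of the 8 genes, labelled KO relative to labelled WT, was 0.13, and that of all tested genes was 0.002.

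**Figure D1:**
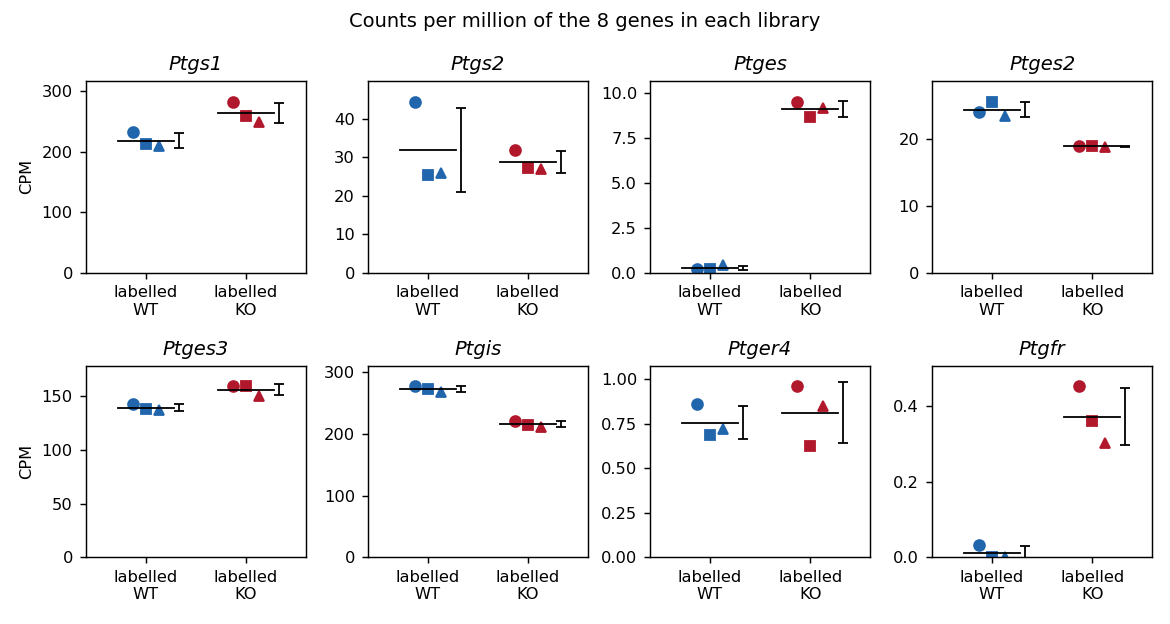
CPM of the 8 listed genes in each library, with a separate linear axis from 0 for each gene. Circles, squares and triangles are replicates 1, 2 and 3 of the group, which are not paired, horizontal lines are group means and bars are SD (n = 3). *Ptges* and *Ptgfr* lie near 0 in the WT-labelled libraries, and 1 WT-labelled library stands high for *Ptgs2*.

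The cyclooxygenases differed little between the groups. *Ptgs1* (chr2:36230426-36252272, plus strand), which encodes COX-1, had 7316, 7128 and 6685 counts in the WT-labelled libraries and 10029, 10812 and 8253 in the KO-labelled ones. Every KO-labelled library was above every WT-labelled one, at 264 ± 17.1 against 219 ± 13.0 CPM (SD, n = 3 each). This is a log2 fold change of 0.27 (standard error, SE, 0.05, adjusted p = 0.000391 by edgeR, Benjamini-Hochberg), or 1.21-fold, which passes the test but lies under the fold limit. Of all tested genes, 41.4% changed more. Its exons share 148 bases, or 3.81% of their length, with Gm43621 on the opposite strand.

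*Ptgs2* (chr1:150100031-150108227, plus strand), which encodes COX-2, had 1395, 848 and 824 counts in the WT-labelled libraries and 1133, 1135 and 892 in the KO-labelled ones. In CPM the WT-labelled libraries were at 44.5, 25.3 and 25.8 and the KO-labelled ones at 32.0, 27.2 and 27.0. The groups overlapped because the first WT-labelled library stood above all others, and the other two labelled WT lay below all of the KO-labelled ones. The log2 fold change was -0.15 (SE 0.17, adjusted p = 0.479 by edgeR). Without the first WT-labelled library its sign turned, to 0.17, and the direction of *Ptgs2* thus depended on that library. Neither value passed the test.

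The 250 bases upstream of each start site are shown for this pair of isozymes, which share a reaction but are known for different control. They are from RefSeq on GRCm38.p6, written 5′ to 3′ on the gene's strand, for *Ptgs1* chr2:36230176-36230425 and for *Ptgs2* chr1:150099781-150100030. Capitals mark matches, on either strand, to a GC box (GGGCGG) or to the C/EBP palindrome TTGCGCAA.
Ptgs1: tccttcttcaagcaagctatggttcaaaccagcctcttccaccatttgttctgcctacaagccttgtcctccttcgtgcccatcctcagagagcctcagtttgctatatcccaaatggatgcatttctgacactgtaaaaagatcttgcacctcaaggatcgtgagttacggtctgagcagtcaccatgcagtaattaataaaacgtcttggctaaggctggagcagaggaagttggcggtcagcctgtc
Ptgs2: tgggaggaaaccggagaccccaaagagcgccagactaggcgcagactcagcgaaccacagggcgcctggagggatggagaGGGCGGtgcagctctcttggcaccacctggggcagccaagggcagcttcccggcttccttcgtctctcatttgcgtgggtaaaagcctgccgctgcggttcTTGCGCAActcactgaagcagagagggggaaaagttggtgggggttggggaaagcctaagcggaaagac
The *Ptgs1* window had 48% GC and no match, and the *Ptgs2* window had 61.6% GC. In *Ptgs2*, a GC box lay 170 to 165 bases before the start and the palindrome 69 to 62 bases before it. A GC box is found in 32.7% of all 32851 windows of this length, and the palindrome in 0.164%. A match describes the letters and shows no binding.

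The prostaglandin E synthases are 3 enzymes that act on the same intermediate. *Ptges* encodes the microsomal synthase known to be induced together with COX-2, *Ptges2* a second membrane-associated synthase, and *Ptges3* the cytosolic synthase, also known as the HSP90 co-chaperone p23. *Ptges* (chr2:30889471-30929863, minus strand) had 7, 6 and 13 counts in the WT-labelled libraries and 337, 360 and 302 in the KO-labelled ones. In CPM these were 0.223, 0.179 and 0.407 against 9.52, 8.64 and 9.15, all above the level of 3 counts. The groups were far apart, and the KO-labelled libraries lay close to each other. The log2 fold change was 5.06 (SE 0.18, adjusted p = 1.13e-10 by edgeR), or 33.4-fold, and 0.728% of tested genes changed more. Leaving out 1 library at a time, the fold ranged from 28.4 to 44.5, the highest without the labelled WT library of 13 counts.

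The other prostaglandin E synthases moved little and in opposite directions. *Ptges2* (chr2:32395896-32405772, plus strand) had 754, 857 and 750 counts in the WT-labelled libraries and 673, 789 and 621 in the KO-labelled ones, or 24.4 ± 1.08 against 18.9 ± 0.0982 CPM. Scaled to library size the groups did not overlap, and the log2 fold change was -0.37 (SE 0.05, adjusted p = 4.04e-05 by edgeR). *Ptges3* (chr10:128058954-128077272, plus strand) had 4478, 4637 and 4385 counts in the WT-labelled libraries and 5639, 6644 and 4963 in the KO-labelled ones, or 140 ± 2.93 against 156 ± 5.20 CPM. Its groups did not overlap in CPM, and its log2 fold change was 0.16 (SE 0.03, adjusted p = 0.0010 by edgeR). Both passed the test and lay under the fold limit.

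*Ptgis* encodes prostacyclin synthase, the cytochrome P450 enzyme of the vasodilator prostacyclin. The gene (chr2:167191805-167240604, minus strand) had 8665, 9134 and 8525 counts in the WT-labelled libraries and 7791, 8946 and 6958 in the KO-labelled ones. At 277, 273 and 267 CPM against 220, 215 and 211, every KO-labelled library was below every WT-labelled library. Its log2 fold change was -0.34 (SE 0.03, adjusted p = 7.59e-07 by edgeR), or 1.26-fold lower, under the fold limit. Its exons share 156 bases, or 6.08% of their length, with 1110018N20Rik on the opposite strand.

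The 2 receptors listed had few counts. *Ptger4* (chr15:5206661-5244187, minus strand), the EP4 receptor, which raises cAMP, had 27, 23 and 23 counts in the WT-labelled libraries and 34, 26 and 28 in the KO-labelled ones. The groups overlapped, at 0.756 ± 0.0928 and 0.811 ± 0.171 CPM, and the log2 fold change was 0.09 (SE 0.23, adjusted p = 0.773 by edgeR). At this depth a difference of this size was not detectable. Its exons share 1015 bases, or 15.3% of their length, with the pseudogene Gm15937 and 82 bases with *Ttc33*, both on the opposite strand, and whether counting used strand is not stated, so its level is uncertain.

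*Ptgfr* (chr3:151796502-151837630, minus strand) had 1, 0 and 0 counts in the WT-labelled libraries and 16, 15 and 10 in the KO-labelled ones. In CPM the KO-labelled libraries were at 0.452, 0.360 and 0.303, and all were above the WT-labelled ones. The ratio of the summed counts, scaled to library size, was 36.0 with a 95% exact binomial interval from 6.12 to 1458, which covers counting error only. The fitted log2 fold change of 4.75 (SE 0.70, adjusted p = 7.61e-05 by edgeR) depends on the prior count and is not a measure of size. Without the first WT-labelled library, the group is at 0 and *Ptgfr* was at least 4.05-fold higher in the KO-labelled libraries, taken against 3 counts in each library. Its exons share 329 bases with Gm43618 on the opposite strand.

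The 250 bases upstream of the start are shown for *Ptges* and *Ptgfr* because these were the genes called. They are from RefSeq on GRCm38.p6, on the minus strand, for *Ptges* chr2:30903298-30903547, a start inside the longer GENCODE gene, and for *Ptgfr* chr3:151837529-151837778. Capitals mark GC boxes (GGGCGG).
Ptges: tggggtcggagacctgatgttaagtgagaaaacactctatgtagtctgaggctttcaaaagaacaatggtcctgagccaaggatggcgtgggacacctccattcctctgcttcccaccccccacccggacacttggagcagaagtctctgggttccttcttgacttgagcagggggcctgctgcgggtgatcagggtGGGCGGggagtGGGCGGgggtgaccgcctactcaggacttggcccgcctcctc
Ptgfr: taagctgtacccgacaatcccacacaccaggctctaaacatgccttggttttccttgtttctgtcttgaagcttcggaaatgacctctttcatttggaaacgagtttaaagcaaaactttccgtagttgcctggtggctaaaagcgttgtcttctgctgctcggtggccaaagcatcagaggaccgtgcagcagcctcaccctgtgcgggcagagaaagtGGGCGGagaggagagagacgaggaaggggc
*Ptges* had GC boxes 53 to 48 and 42 to 37 bases before the start and 59.6% GC, and *Ptgfr* had a GC box 30 to 25 bases before the start and 52% GC. Of the 10 genes, 9 had a window and 6 of these held a GC box. The GLI consensus GACCACCCA was in none of the 9 and in 0.225% of all windows. The TATA box TATAAA, in 12.4% of all windows, and the cAMP response element core TGACG, in 17.8%, were also in none of the 9. The E-box CACGTG, in 6.02% of all windows, was in that of *Ptges2*. These matches say only which letters stand in these windows, and nothing about a factor.

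Levels of different genes were compared per length, as CPM per kb of the union of annotated exons. *Ptgis* ranked first in the WT-labelled libraries with 106.0 ± 1.85 (SD, n = 3), followed by *Ptges3* with 63.0 ± 1.32 and *Ptgs1* with 56.3 ± 3.35. The order of the latter pair turned when the longest transcript was used as length, at 69.8 ± 1.47 for *Ptges3* and 76.2 ± 4.54 for *Ptgs1*. *Ptgs2* came next with 6.96 ± 2.39 and *Ptges2* with 4.82 ± 0.214, which differ by less than the spread of *Ptgs2*. *Ptger4* (0.114 ± 0.0140) and *Ptges* (0.0687 ± 0.0308) were near the bottom of the order and *Ptgfr* was last.

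In the KO-labelled libraries the order of the means was the same but for *Ptges*, which at 2.32 ± 0.112 CPM per kb stood above *Ptger4* at 0.122 ± 0.0258. *Ptges3* (70.5 ± 2.34) and *Ptgs1* (68.0 ± 4.41) differed by less than their spread, and *Ptgs1* was above *Ptges3* in the first KO-labelled library. Per length, *Ptges* made up 0.102% ± 0.0471 of the summed level of the prostaglandin E synthases in the WT-labelled libraries and 3.03% ± 0.177 in the KO-labelled ones. The share of *Ptges2* was 7.11% ± 0.335 and 4.89% ± 0.129, and that of *Ptges3* was 92.8% ± 0.313 and 92.1% ± 0.278. *Ptges3* thus held most of the transcript level of these synthases in both groups. The per-length level of *Ptgis* was 1744 ± 676 times that of *Ptges* in the WT-labelled libraries and 36.3 ± 1.57 times in the KO-labelled ones. The ratio of *Ptgs1* to *Ptgs2* was 6.18, 9.91 and 9.57 in the WT-labelled libraries and 10.4, 11.2 and 10.9 in the KO-labelled ones, without overlap, and an exact permutation test of 3 against 3 libraries cannot give a two-sided p under 0.1.

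**Figure D2:**
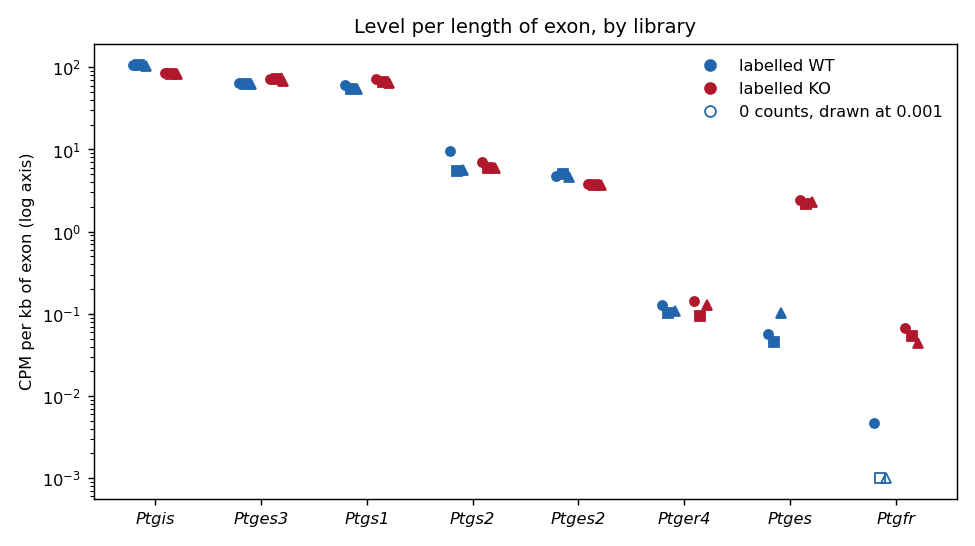
Level of the 8 listed genes in CPM per kb of exon in each library, on a log axis, with circles, squares and triangles for replicates 1, 2 and 3 of a group. Libraries with 0 counts are open symbols drawn at 0.001. *Ptges* moved from below *Ptger4* in the WT-labelled libraries to above it in the KO-labelled ones, and *Ptges3* and *Ptgs1*, which lie close together, changed places in the first KO-labelled library.

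Other genes of the pathway were counted from a list of 71, of which 49 were in the table and 47 tested. Of these 9 were called, 6 higher and 3 lower in the KO-labelled libraries, against 17.7% of all tested genes. *Prxl2b*, *Pla2g4c*, *Ptger3* and *Tbxas1* had passed the filter on low counts only through the group where they were higher. The count of 9 thus gives no support of its own. On the adjusted p alone 32 of the 47 passed, 15 higher and 17 lower, where 58.7% of all tested genes did. Libraries did not overlap between the groups for 34 of the 47, against 64.2% of all tested genes. Both counts lie near the share over all genes, and the median log2 fold change was 0.001, beside 0.002 for all tested genes.

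**Figure D3:**
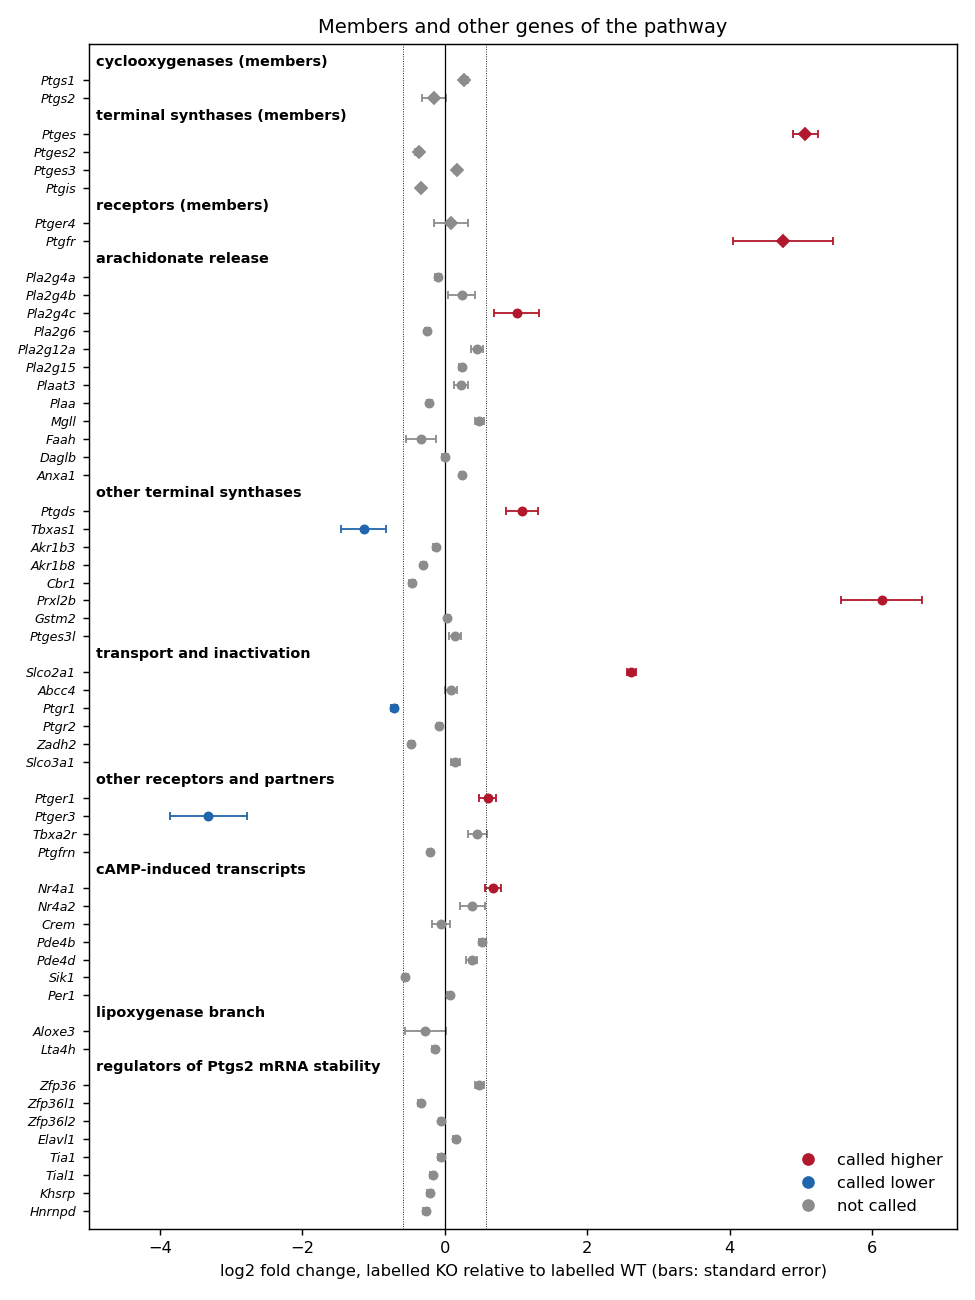
Log2 fold change, labelled KO relative to labelled WT, of the 8 listed genes (diamonds) and the 47 tested genes of the pathway list (circles), by role, with bars for the standard error of edgeR's fit. Dotted lines mark the 1.5-fold limit, red and blue mark genes called higher and lower, and grey marks genes not called. Fitted values of *Ptgfr* and *Prxl2b* rest on a labelled WT group with 1 count in all. *Ptges*, *Ptgfr*, *Prxl2b* and *Slco2a1* lie far to the right, and *Ptger3* lies far to the left.

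Among 12 tested genes of arachidonate release, 1 was called, against 17.7% of all tested genes. On the adjusted p alone 5 were higher and 3 lower, where 58.7% of all tested genes passed. *Pla2g4a*, the cytosolic phospholipase A2 that supplies arachidonate to both cyclooxygenases, had 4118, 4195 and 3921 counts in the WT-labelled libraries and 4381, 4869 and 3788 in the KO-labelled ones. Its groups overlapped in CPM, and its log2 fold change was -0.10 (SE 0.04, adjusted p = 0.0463 by edgeR). It did not pass with DESeq2 (adjusted p = 0.0713). By edgeR it did not pass with upper-quartile scaling (adjusted p = 0.427), with total counts (0.198) or without the first WT-labelled library (0.151), among other settings. *Pla2g4c*, another member of that family, was called with 7, 7 and 9 counts against 14, 20 and 19, a log2 fold change of 1.01 (SE 0.31, adjusted p = 0.0146 by edgeR). That call was lost with DESeq2 (adjusted p = 0.0958), without the second WT-labelled library (0.0577) and without the third labelled KO (0.0529). *Mgll*, the monoacylglycerol lipase that releases arachidonate from endocannabinoid, passed the adjusted p at a log2 fold change of 0.48, under the fold limit. *Anxa1*, which encodes the phospholipase inhibitor annexin A1, did so at 0.24.

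Among 8 tested terminal synthases of other prostanoids, 2 were called higher and 1 lower, against 11.6% and 6.1% of all tested genes. *Ptgds*, the prostaglandin D synthase of brain and other tissues, had 15, 22 and 15 counts in the WT-labelled libraries and 43, 52 and 31 in the KO-labelled ones, a log2 fold change of 1.08 (SE 0.23, adjusted p = 0.00136 by edgeR). *Prxl2b*, a peroxiredoxin-like protein known as prostamide/prostaglandin F synthase, had 1, 0 and 0 counts against 29, 48 and 31. The ratio of its summed counts was 94.9 (95% exact binomial interval 16.7 to 3783, counting error only), and without the first WT-labelled library it was at least 10.6-fold higher. *Tbxas1*, thromboxane synthase, was lower, with 14, 15 and 18 counts against 10, 7 and 7 and a log2 fold change of -1.14 (SE 0.32, adjusted p = 0.00816 by edgeR), a call that DESeq2 did not make (adjusted p = 0.0601). *Cbr1*, *Akr1b8* and *Akr1b3*, reductases that can act on prostaglandins, were lower at log2 fold changes of -0.46, -0.30 and -0.13, under the fold limit.

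Of the 6 tested genes of transport and inactivation, *Slco2a1* was called higher and *Ptgr1* lower, against 11.6% and 6.1% of all tested genes. *Slco2a1* encodes the prostaglandin transporter that takes prostaglandins into cells for breakdown. It had 156, 172 and 146 counts in the WT-labelled libraries and 1040, 1296 and 980 in the KO-labelled ones, or 4.90 ± 0.290 against 30.1 ± 0.921 CPM. Its log2 fold change was 2.62 (SE 0.06, adjusted p = 4.40e-12 by edgeR), the smallest adjusted p on the pathway list. *Ptgr1*, a reductase of the later steps of inactivation, had 1544, 1602 and 1504 counts against 1038, 1254 and 927, a log2 fold change of -0.72 (SE 0.04, adjusted p = 1.47e-08 by edgeR). *Zadh2*, also a prostaglandin reductase, was lower at -0.47, under the fold limit. *Abcc4*, an exporter of prostaglandin E, had 582, 484 and 502 counts against 643, 695 and 556, and its log2 fold change of 0.09 did not pass the test (adjusted p = 0.391 by edgeR).

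The other prostanoid receptors also moved in both directions. *Ptger3*, the EP3 receptor, which lowers cAMP, had 13, 18 and 16 counts in the WT-labelled libraries and 1, 4 and 0 in the KO-labelled ones. Its log2 fold change was -3.32 (SE 0.54, adjusted p = 0.000160 by edgeR), and ranged from -4.74 to -2.84 with 1 library left out. With so few counts in the KO-labelled libraries, this size depends on the prior count. *Ptger1*, the EP1 receptor, which raises intracellular calcium, had 102, 118 and 88 counts against 178, 184 and 168, a log2 fold change of 0.60 (SE 0.12, adjusted p = 0.000763 by edgeR). It was near the fold limit and fell under it without the third WT-labelled library (0.51), the first labelled KO (0.57) or the third labelled KO (0.57). *Ptgir*, the prostacyclin receptor, had 0, 1 and 0 counts against 15, 12 and 12 and was under the filter for testing. The ratio of its summed counts was 34.3 (95% exact binomial interval 5.80 to 1388, counting error only). *Tbxa2r*, the thromboxane receptor, passed the adjusted p at 0.45, under the fold limit.

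Transcripts known to be induced by cAMP, which EP4 and the prostacyclin receptor raise, gave 1 call among 7 tested. Of all tested genes, 17.7% were called. *Nr4a1*, an immediate early nuclear receptor, had 140, 126 and 104 counts in the WT-labelled libraries and 224, 263 and 189 in the KO-labelled ones, a log2 fold change of 0.68 (SE 0.11, adjusted p = 0.000223 by edgeR), which fell to 0.58, under the fold limit, without the third WT-labelled library. *Pde4b* and *Pde4d*, phosphodiesterases that break down cAMP, were higher at 0.53 and 0.38, and *Sik1*, a salt-inducible kinase, was lower at -0.56, all under the fold limit. *Crem* and *Per1* did not pass the test, with log2 fold changes of -0.06 and 0.07. Of 8 proteins that bind and stabilize or destabilize *Ptgs2* mRNA, none was called by edgeR, and on the adjusted p alone 2 were higher and 4 lower, beside the same 58.7%. *Zfp36*, which encodes the destabilizing protein tristetraprolin, had a log2 fold change of 0.49, and *Elavl1*, which encodes the stabilizing protein HuR, had 0.15. Of 13 genes of the lipoxygenase branch, which makes leukotrienes from the same arachidonate, 3 were listed, 2 were tested and none was called by edgeR. *Lta4h*, the leukotriene A4 hydrolase, passed the adjusted p at -0.14. *Cysltr1*, a leukotriene receptor, had 1, 0 and 0 counts against 11, 9 and 4 and was under the filter for testing.

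Markers of mesothelium, the cell layer that covers the pancreas, moved with *Ptges* and *Slco2a1*. Of 6 such markers 5 were listed, and all 5 were called higher in the KO-labelled libraries, where 11.6% of all tested genes were. Their summed level ranged from 22.6 to 25.6 CPM in the WT-labelled libraries and from 291 to 293 in the KO-labelled ones. *Msln*, which encodes mesothelin, had 77, 91 and 62 counts against 5949, 6904 and 5392, a log2 fold change of 6.12 (SE 0.06, adjusted p = 3.75e-15 by edgeR). *Lrrn4* and *Upk1b* changed by 4.62 and 4.40, and *Upk3b* and *Wt1* by 1.90 and 1.83. *Krt19*, also on this list, had no row. The summed level of 4 listed epithelial markers, of 7, ranged from 12.8 to 13.8 CPM in the WT-labelled libraries and from 29.5 to 30.4 in the KO-labelled ones, of which *Krt7* made up 4.38 ± 0.472 and 23.1 ± 0.257 CPM. *Krt7* and *Cdh1* were called higher, at log2 fold changes of 2.40 and 1.08, where 11.6% of all tested genes were. *Cdh1* had 10, 14 and 9 counts against 28, 33 and 19, and passed the filter on low counts only through the KO-labelled libraries. *Sox9* was lower at -0.50 (adjusted p = 0.000173 by edgeR), under the fold limit, and *Krt8* was not tested. The 10 listed fibroblast markers summed to 57400 to 58130 CPM and to 47300 to 49660. Of the 9 tested, 4 were called lower, *Dcn* at -1.55, *Col3a1* at -0.94, *Pdgfra* at -0.90 and *Pdgfrb* at -0.66. Only *S100a4* was called higher, at 1.67, where 6.1% of all tested genes were called lower and 11.6% higher. The 4 listed macrophage markers, of 8, summed to 55.6 to 60.8 CPM and to 52.4 to 54.1. In bulk samples, fewer cells of a type and less RNA per cell cannot be told apart, and the part of these markers in the changes of *Ptges*, *Ptgfr*, *Slco2a1* and the other genes was not tested.

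**Figure D4:**
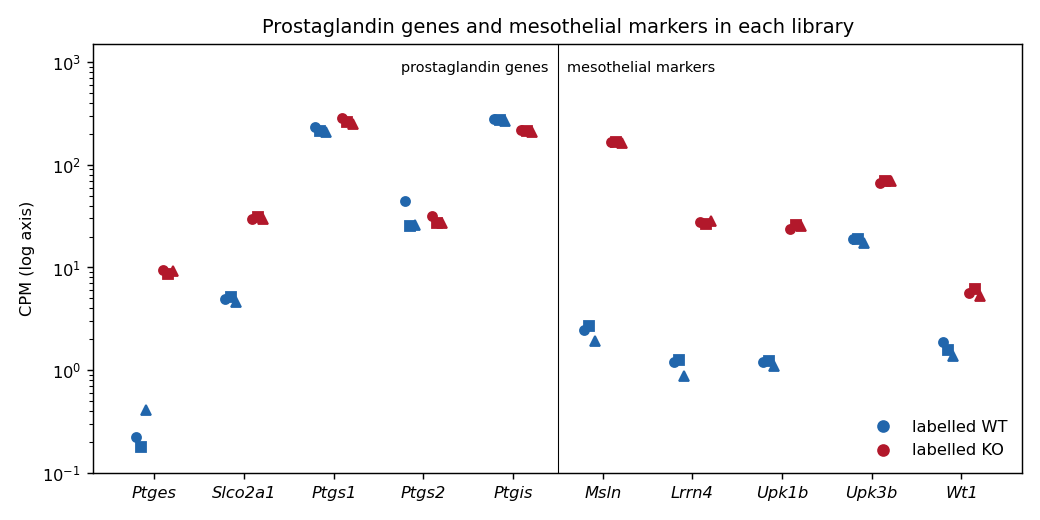
CPM in each library, on a log axis, of 5 prostaglandin genes (left) and the 5 listed mesothelial markers (right), with circles, squares and triangles for replicates 1, 2 and 3 of a group. *Ptges*, *Slco2a1* and all 5 markers were higher in the KO-labelled libraries, while *Ptgs1*, *Ptgs2* and *Ptgis* differed by less than 1.5-fold between the groups.

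The genes whose pattern over the 6 libraries was most like that of *Ptges* were *Birc3*, *Adcy3* and *Clmn*. Likeness was the root mean square difference of centred log2 CPM, taken over 11032 genes with a symbol and a mean of at least 100 counts, the listed genes left out, and it was 0.17 for *Birc3*, 0.26 for *Adcy3* and 0.30 for *Clmn*. All had few counts in the WT-labelled libraries, with 17, 11 and 21 in all, and the likeness is a description over 6 libraries in 2 groups. *Birc3* encodes an inhibitor of apoptosis in NF-kappaB signalling, and *Adcy3* an adenylate cyclase. *Ptgfr* had too few counts for this comparison.

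The changes of *Ptges* and *Ptgfr* kept their direction under every scaling, tool and left-out library that could test them. *Ptges* ranged from 4.83 to 5.47 on the log2 scale and *Ptgfr* from 4.09 to 6.72. Both were called in 13 of 13 settings, all drawn from the same 6 libraries. In the reported fit both had passed the low-count filter only through the KO-labelled libraries, so this tally gives no support of its own. The filter of at least 10 counts in every library left both untested and is not among these 13. The values of *Ptgfr* are not a measure of size. *Ptgs1*, *Ptges2*, *Ptges3* and *Ptgis* kept their direction and passed the adjusted p in all 14 settings, with no call in any. *Ptgs2* and *Ptger4* changed sign in 1 setting each, and neither passed the test in any.

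**Figure D5:**
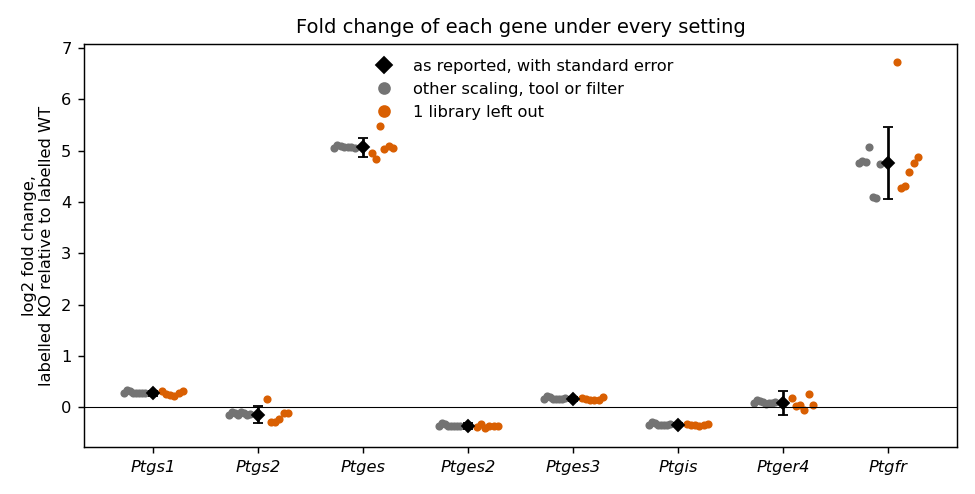
Log2 fold change, labelled KO relative to labelled WT, of the 8 listed genes as reported (diamonds, bars are standard errors), under other scalings, tools and filters (grey) and with 1 library left out (orange). The settings of each gene lie close together except for *Ptgfr*, whose value without the first WT-labelled library reached 6.72, and *Ptgs2* and *Ptger4* lie on both sides of 0.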

How the data were processed

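RNAseq of 3 libraries labelled WT and 3 labelled KO was analysed. The authors deposited raw counts per gene and log2 CPM values. The deposited log2 CPM values differ from log2 counts with a small constant added by 1 fixed offset in each library. The submitters' processing notes name STAR 2.7.2b, featureCounts, limma and GRCm38.p6, without their roles, and whether counting used strand is not given in the sources used here. Libraries were made from polyadenylated RNA. Of 14831 identifiers, 14822 matched GENCODE M21 without the version, and symbols are in the table for 13666. CPM was scaled by TMM.

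Counts were tested with edgeR 4.0.16 (R 4.3.3; TMM, filterByExpr, quasi-likelihood F test) with Benjamini-Hochberg adjustment over 14289 genes. The standard error was taken from the fold change and its F statistic. The script was tested on simulated data. Within groups, chi-square per degree of freedom was 2.50 to 7.74, so no libraries were counted as 1. The biological coefficient of variation was 3.74%, so small differences pass the test. Intervals and floors cover counting error only.

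The genes, lists, fold limit and tests were chosen with earlier results of these data known. Named are the 10 genes, any gene of the pathway list (called ones with values), marker and targeted genes, and the 3 genes nearest to a called gene with a mean of at least 100 counts. The genes named for the first WT-labelled library were chosen after their values were seen. Alternatives were scaling by RLE, upper quartile or total counts, DESeq2 1.42.0, limma 3.58.1 on the counts and on the deposited log2 values, other filters and fold limits, each library left out, and another length. Promoter windows are RefSeq's, without the 50 transcribed bases, and *Ptgis* had none.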

Additional observations from a re-analysis of the deposited data

How the results depend on the processing

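The count of called genes depended most on the fold limit and the filter. Without a fold limit, 6 of the 8 listed genes, 32 pathway genes and 8391 of all genes passed, and at a limit of 2-fold 1456 of all genes did, where 2, 9 and 2531 were called as reported. With at least 10 counts in every library, 0 listed genes were called by edgeR, since *Ptges* and *Ptgfr* were then not tested, and 5 pathway genes were called. Of the 6 listed genes still tested under that filter, 4 had passed the adjusted p in all settings and were under the fold limit. DESeq2 called 2 listed genes and 7 pathway genes. With each library left out in turn, 2 listed genes were called each time, and 7 to 10 pathway genes. The 2 listed genes were *Ptges* and *Ptgfr*, whose calls give no support of their own.

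Among 110 fold changes of the listed genes under alternatives, none crossed the test's threshold. The sign turned for *Ptgs2* and *Ptger4* only, in 1 setting each (0.17 for *Ptgs2* without the first WT-labelled library, -0.06 for *Ptger4*). Upper-quartile scaling moved the median log2 fold change of all genes to 0.059 and total counts moved it to 0.037. No paired analysis was possible because the labels give the libraries no replicate numbers. Among the listed and pathway genes, depth limits *Ptgfr*, *Ptger4*, *Ptger3*, *Ptgir*, *Cysltr1*, *Pla2g4c* and *Tbxas1*, which had at most 34 counts in any library.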

Other observations

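The first WT-labelled library, in which *Ptgs2* stood high, was compared with the other two of its group over all 11039 genes with a mean of at least 100 counts. In it 13 genes lay more than 1.5-fold above both others, among them *Ptgs2*, which was 0.79 above the higher of them on the log2 scale, and 8 lay more than 1.5-fold below. *Hcn4*, *Larp6* and *Ptx3* are among these 13 with fewer than 10 counts in each WT-labelled library. *Mycn* had 47, 21 and 20 counts in the WT-labelled libraries and *Bcat1*, an aminotransferase of branched-chain amino acids, had 192, 116 and 99. In the other libraries 3 to 12 genes lay above both others of their group and 0 to 9 below. These genes were named after their values were seen, and a difference between wells was not tested.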
